A study of Mus musculus with 6 samples.

Results

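Windows of the mouse genome in which accessible sites of the embryonic atria crowd together are described here. Open chromatin had been mapped by ATAC-seq, in which the Tn5 transposase cuts and tags accessible DNA, in the atria (HT in the labels) and the posterior second heart field (pSHF). Both tissues were microdissected from wild-type CD1 mice, an outbred stock, at embryonic day 10, pooled over embryos and dissociated, so each library mixes all cell types of the dissected piece. The labels give 3 samples per tissue, and 1 peak list per tissue was analysed, so values carry no SD over samples and tissues were compared without a test or p-value. All coordinates are mm10, the build in the submitters' processing notes.

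A peak was called restricted when it shared no base with any peak of the other tissue's list. Of 49267 HT peaks, 22400 were HT-restricted (45.5%), and of 44018 pSHF peaks, 15132 were pSHF-restricted. The genome was divided into 100-kb windows from position 0 of each chromosome, and each restricted peak was placed by its summit. Windows were chosen by these counts: an HT-ahead window holds at least 5 more HT-restricted than pSHF-restricted peaks. Of 15333 windows with a restricted peak, 257 were HT-ahead (1.68%), and they held 1586 HT-restricted peaks, which are the clustered peaks of this account. They make up 1586 of 93285 peaks in both lists. The opposite (pSHF-ahead) windows, with pSHF-restricted peaks ahead by at least 5, numbered 49 (0.32%). Since the counts chose the windows, the excess of HT-restricted over pSHF-restricted peaks in them is a description and was not tested.

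By embryonic day 10 the atria are beating muscle lined by endocardium and filled with blood, in which red cells carry embryonic globins. The posterior second heart field is a progenitor tissue behind the heart that supplies cells to the atria and the atrial septum, and Hedgehog signalling is known to act there. Active genes often lie among several accessible elements, such as promoters and enhancers, and the beta-globin genes with their upstream locus control region are a textbook case. In pooled tissue, fewer cells of a type and less open chromatin per cell cannot be told apart.

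Clustered peaks had their summits in 56 of the 300-base promoter windows of RefSeq (GRCm38.p6, 250 bases before to 50 after a start), from 54 genes. The 6 printed here are those of the red-cell and heart genes among 8 promoters, those of protein-coding genes in the windows named below with the highest fold enrichment of the clustered peak. The others of the 8 were Lpin2 and Tfeb, and promoters of noncoding RNA genes were left out. For Nkx2-5 and Myh6, the RefSeq start used lies inside the gene's full span. Each runs 5′ to 3′ on the gene's strand. Capitals mark every match, on either strand, to any of 8 motifs. AGATAA is a motif of the GATA factors of blood and heart. TATAAA is the TATA box of core promoters. CCAAT is bound by nuclear factor Y, and CACCC by factors of the Krüppel-like family. CATTCC is the M-CAT motif of TEAD factors, which act in muscle and other tissues. CTAAAAATA is a motif of the MEF2 muscle regulators, and CAAGTG is bound by factors of the NKX2 family. The last is the CArG box of serum response factor. A match is a run of letters, not a bound site.
Hbb-y, chr7:103853158-103853457, minus strand: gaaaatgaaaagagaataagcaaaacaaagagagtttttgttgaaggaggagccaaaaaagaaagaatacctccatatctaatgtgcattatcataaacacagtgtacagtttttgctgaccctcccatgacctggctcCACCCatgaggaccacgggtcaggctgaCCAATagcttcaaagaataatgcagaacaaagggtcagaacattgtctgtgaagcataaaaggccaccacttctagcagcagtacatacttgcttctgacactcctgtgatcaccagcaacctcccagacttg
Hbb-bs, chr7:103827879-103828178, minus strand: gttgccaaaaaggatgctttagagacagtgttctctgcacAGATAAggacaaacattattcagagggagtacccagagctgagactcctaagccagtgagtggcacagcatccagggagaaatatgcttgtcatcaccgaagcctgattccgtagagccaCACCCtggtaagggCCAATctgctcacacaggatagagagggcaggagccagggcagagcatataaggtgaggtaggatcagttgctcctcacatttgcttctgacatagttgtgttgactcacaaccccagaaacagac
Myh6, chr14:54966558-54966857, minus strand: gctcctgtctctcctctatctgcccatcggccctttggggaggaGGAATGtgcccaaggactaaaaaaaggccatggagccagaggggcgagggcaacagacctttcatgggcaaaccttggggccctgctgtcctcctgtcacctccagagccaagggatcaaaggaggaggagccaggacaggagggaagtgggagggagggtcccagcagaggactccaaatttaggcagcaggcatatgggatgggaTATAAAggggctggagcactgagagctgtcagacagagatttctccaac
Myl2, chr5:122092939-122093238, plus strand: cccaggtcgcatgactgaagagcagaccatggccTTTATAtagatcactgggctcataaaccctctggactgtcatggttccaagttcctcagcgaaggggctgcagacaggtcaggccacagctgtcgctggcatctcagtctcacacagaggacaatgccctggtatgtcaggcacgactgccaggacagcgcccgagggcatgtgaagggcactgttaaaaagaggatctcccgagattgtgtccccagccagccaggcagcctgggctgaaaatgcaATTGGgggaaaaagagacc
Nkx2-5, chr17:26841516-26841815, minus strand: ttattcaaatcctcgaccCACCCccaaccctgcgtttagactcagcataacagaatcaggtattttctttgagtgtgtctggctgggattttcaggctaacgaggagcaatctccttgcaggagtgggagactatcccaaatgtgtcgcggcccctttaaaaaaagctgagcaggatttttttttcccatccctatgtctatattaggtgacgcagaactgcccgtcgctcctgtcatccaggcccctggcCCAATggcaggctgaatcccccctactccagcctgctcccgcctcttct
Hand2, chr8:57320733-57321032, plus strand: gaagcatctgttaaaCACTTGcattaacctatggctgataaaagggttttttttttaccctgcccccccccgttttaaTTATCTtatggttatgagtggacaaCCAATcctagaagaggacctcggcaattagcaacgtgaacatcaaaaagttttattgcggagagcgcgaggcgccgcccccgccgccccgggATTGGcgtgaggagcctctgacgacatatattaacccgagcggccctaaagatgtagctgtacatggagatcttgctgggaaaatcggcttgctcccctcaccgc

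Hbb-y encodes an embryonic beta-type globin and Hbb-bs an adult one. Both globin promoters carry CACCC and CCAAT upstream of the start: at 111 and 83 bases before it in Hbb-y, and at 90 and 76 bases in Hbb-bs, which also has AGATAA at 210 bases. Hand2 matches the NKX2 and GATA motifs once each and the CCAAT motif in 2 places. Myh6 matches CATTCC on the opposite strand, 206 bases before the start used, and TATAAA from 1 base after it. Myl2 matches TATAAA 216 bases before the start and CCAAT 31 bases after it, both on the opposite strand. Neither TATAAA thus lies on the gene's strand before the start used. Nkx2-5 matches CACCC 232 bases before the start used and CCAAT from 1 base after it. Over all 32851 RefSeq promoters of this length, CACCC was found in 57.5%, CCAAT in 37.4% and AGATAA in 11.2%. Among the 56 promoters under clustered peaks the shares were 71.4%, 26.8% and 19.6%, and among 615 promoters under other HT-restricted peaks they were 67.2%, 29.4% and 18.2%. For these 3 motifs the promoters under clustered peaks lay nearer to those under other HT-restricted peaks than to all promoters. For each other motif the 3 shares follow in the same order: all promoters, those under clustered peaks, those under other HT-restricted peaks. TATAAA was in 13.6%, 14.3% and 11.5%, and CATTCC in 14.7%, 10.7% and 18.4%. CAAGTG was in 13.6%, 10.7% and 16.9%, and the CArG box in 1.63%, 3.57% (2 of 56) and 2.28%. For CATTCC and CAAGTG the clustered peaks' promoters lay below both other groups. CANNTG, the E-box, which contains every CAAGTG match, was in 72.3%, 71.4% and 75% and is not capitalised. A CArG box can contain the letters of TATAAA. CTAAAAATA was in 0 of the 56, in 0.517% of all promoters and in 1.46% of those under other HT-restricted peaks.

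The beta-globin locus was the window furthest ahead. The window on chromosome 7 from 103800001 to 103900000 held 13 HT-restricted peaks and 0 pSHF-restricted peaks, with 2 further HT peaks that met a pSHF peak. It spans Hbb-bt and Hbb-bs (adult globins), Hbb-bh2, Hbb-bh1 and Hbb-y (Hbb-bh1 and Hbb-y are embryonic), and the olfactory receptor genes Olfr66 and Olfr64. From low to high coordinate, fold enrichment over the caller's background was 4.20 and 8.69 beyond the end of Hbb-bt and 6.03 at the Hbb-bs promoter printed above. It was 3.51 and 4.53 at Hbb-bh2, 6.17 at 62 bp from a gene end of Hbb-bh1, and 3.53 between Hbb-bh1 and Hbb-y. Around Hbb-y it was 4.32, 3.90 and, at the promoter printed above, 6.80. The remaining 3 peaks lay between Hbb-y and Olfr66, on the side of the locus control region, with folds of 9.32, 7.21 and 11.5.

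The highest fold of a clustered peak in the globin window was thus outside the globin genes, at 103877149 to 103877442. The 2 shared peaks had folds of 9.02 in HT and 4.85 in pSHF, and of 12.3 in HT and 7.0 in pSHF. Of the 13 clustered peaks, 8 lay within 1 kb of a gene end and 9 reached a −log10 q of 5. Globin genes are related copies, so reads at the more alike ones, such as Hbb-bt and Hbb-bs, may be split or misplaced between them.

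**Figure D1:**
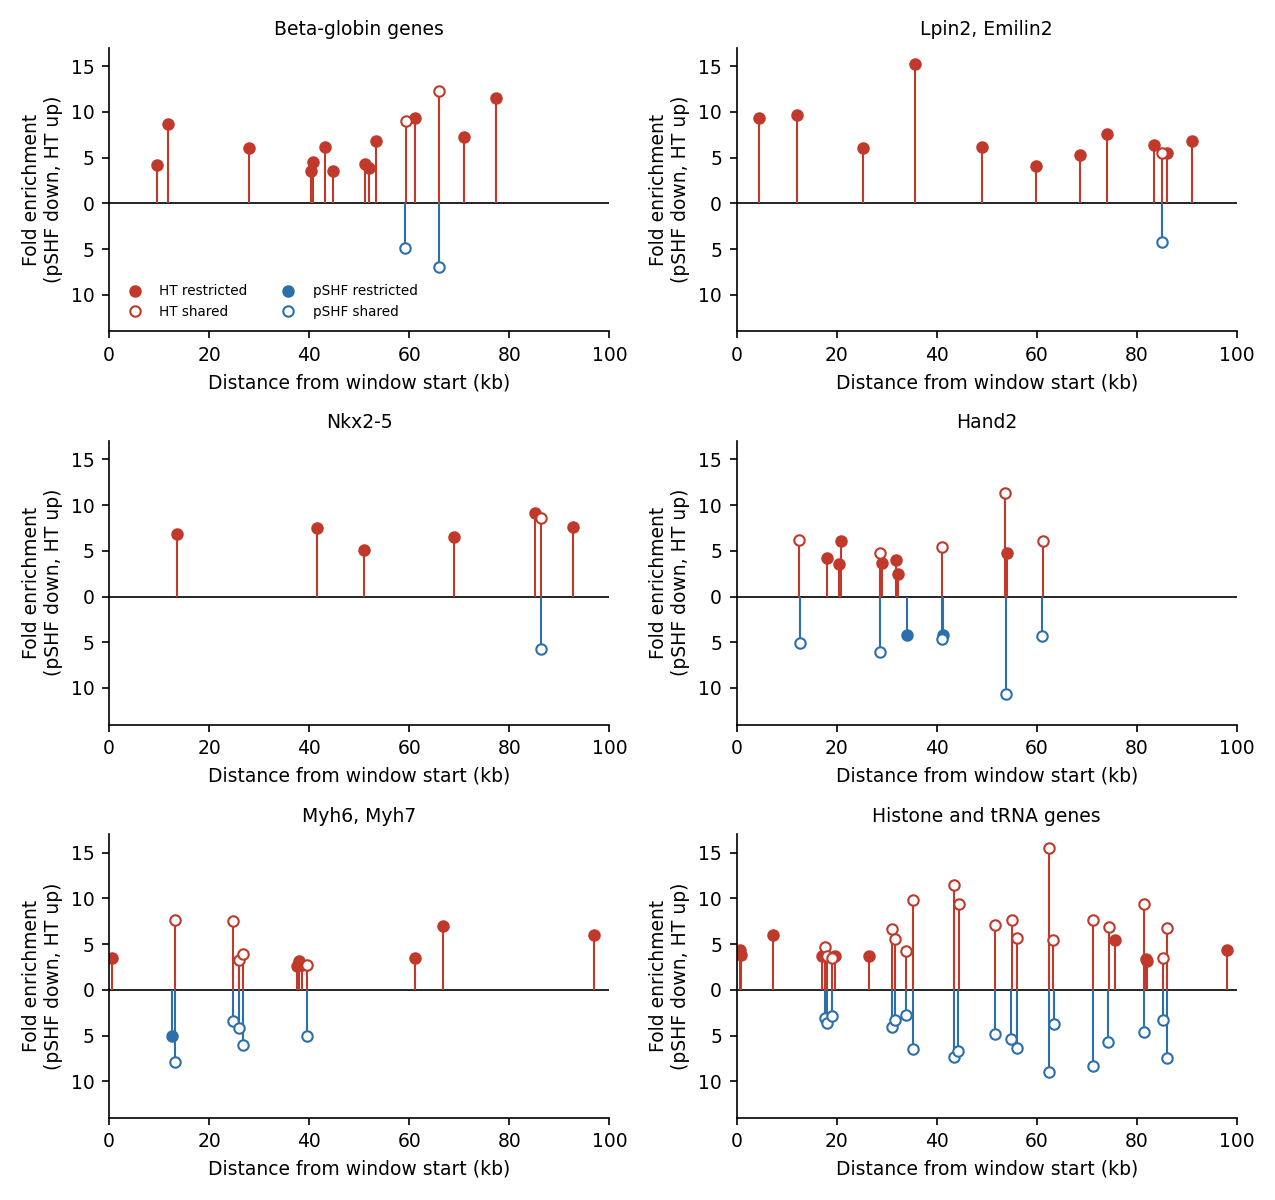
Peaks of 6 HT-ahead windows by distance in kb from the window start (x axis) and fold enrichment (y axis), with HT peaks drawn upward in red, pSHF peaks downward in blue, restricted peaks filled and shared peaks open. In the beta-globin window all 13 filled points are red and reach a fold of 11.5, and in the histone and tRNA window the open points are the higher ones.

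Red-cell genes occurred in other HT-ahead windows. The window around Slc4a1, the band 3 anion exchanger of the red-cell membrane (chromosome 11, 102300001 to 102400000), held 7 HT-restricted peaks and 1 pSHF-restricted peak. Its strongest clustered peak lay inside Slc4a1 at 102363683 to 102363982 with a fold of 8.14 and 35 summit reads, and another lay 46 bp from the gene's end with a fold of 6.45. Only these 2 of the 7 lay inside Slc4a1, and 2 others lay inside Ubtf. Without gene-end peaks in either list the excess of the Slc4a1 window was 3. The window of Tal1, a transcription factor of blood and endothelial cells, held 5 HT-restricted peaks and 0 pSHF-restricted peaks, with folds of 3.92 to 5.12. Only 1 of the 5 lay inside Tal1, and without gene-end peaks in either list the excess there was 2. Rhag, which encodes the Rh-associated glycoprotein of red cells and is in none of the 16 gene lists, lay in a window with 6 HT-restricted and 0 pSHF-restricted peaks. A peak in that window, 4236 bp from Rhag, had a fold of 14.1, and the peak at the Rhag promoter had a fold of 5.99.

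Of 22 erythroid genes, 7 overlapped an HT-ahead window (31.8%), against 547 of 21627 protein-coding genes (2.53%). The 5 beta-type globins share 1 window, and without them the count was 2 of 17 (11.8%). An HT peak lay within 1 kb of a gene end for 18 of the 22 erythroid genes and a pSHF peak for 9. Over all protein-coding genes the shares were 59.2% for HT and 58.5% for pSHF, against 81.8% and 40.9% of the erythroid genes. The part of blood cells in the clustering was not tested. Of 10 platelet and megakaryocyte genes, 1 overlapped an HT-ahead window: Itgb3, the beta subunit of the platelet fibrinogen receptor, had 6 clustered peaks, all inside the gene, with folds of 3.24 to 9.04. Myl4, the atrial light chain, lay 12.8 kb to the left of that window. Of 10 macrophage genes, 1 did so: the window of Spi1, which encodes the myeloid factor PU.1, held 5 HT-restricted and 0 pSHF-restricted peaks, 1 of them inside Spi1. Mybpc3, a gene of the cardiac sarcomere, was the next coding gene to the right of the Spi1 window.

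Heart muscle genes formed the next group. Of 22 sarcomere genes, 5 overlapped an HT-ahead window (22.7%): Actn2, Myh6, Myh7, Actc1 and Myl2. Myh6 and Myh7, the alpha and beta cardiac myosin heavy chains, share the window on chromosome 14 from 54900001 to 55000000, which held 7 HT-restricted peaks beside 1 pSHF-restricted peak. The peak at the Myh6 promoter printed above had a fold of 6.95 with 28 summit reads, and a peak 2392 bp from Myh7 had a fold of 6.01. A second peak inside Myh6 had a fold of 3.44. Of the other 4 peaks, 3 lay in the neighbouring gene Cmtm5 with folds of 2.65, 3.14 and 2.69, so only part of that window's count lies at the myosin genes. The microRNA genes Mir208a and Mir208b, which sit in introns of these myosin genes, were among 14 of 1005 RefSeq hairpins in HT-ahead windows, and 0 hairpins lay under a clustered peak.

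Actn2, the alpha-actinin of the cardiac Z-disc, held all 5 clustered peaks of its window, with folds of 4.14 to 6.86 and 0 pSHF-restricted peaks beside them. At Myl2, the ventricular regulatory light chain, the window held 6 HT-restricted peaks and 1 pSHF-restricted peak. Of these, 3 were at or near Myl2: at 3617 bp outside the gene with a fold of 6.90, at the promoter printed above with 6.51, and inside the gene with 6.10. Without gene-end peaks in either list the excess of the Myl2 window was 3. The window of Actc1, cardiac alpha-actin, held 6 HT-restricted peaks and 1 pSHF-restricted peak. The peak at the Actc1 end, 31 bp from it, had a fold of 5.41 with 27 summit reads, and 5 of the 6 peaks lay within 1 kb of a gene end. Gene-end peaks thus made up most of the Actc1 count, and without gene-end peaks in either list the window's excess was 0.

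Of 20 cardiac transcription factors, 3 overlapped an HT-ahead window (15%). Nkx2-5, the homeobox factor of early heart muscle, was the only protein-coding gene of the window on chromosome 17 from 26800001 to 26900000. All 6 clustered peaks there reached a −log10 q of 5, with folds of 5.08 to 9.08, and 0 peaks were pSHF-restricted. The peak at the Nkx2-5 promoter printed above had a fold of 7.52 and 21 summit reads, and the highest, at 26885008 to 26885227, lay 32.0 kb from the nearest coding gene, Kifc5b. Myocd encodes myocardin, a coactivator of serum response factor. All 6 clustered peaks of its window lay inside Myocd within 30.1 kb, with folds of 3.10 to 8.30.

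Hand2, a basic helix-loop-helix factor of heart and limb, stood in a joined pair of HT-ahead windows, on chromosome 8 from 57300001 to 57500000. The pair held 12 HT-restricted and 2 pSHF-restricted peaks. The peak at the promoter printed above, 7 bp from the start, had a fold of 6.08 with 24 summit reads. The highest fold of the pair was 8.22, at 57468728 to 57468979 inside Scrg1. In the window that contains Hand2, 5 of 7 clustered peaks lay within 1 kb of a gene end, 4 of them of noncoding RNA genes, and without gene-end peaks in either list its excess was 0.

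Ion channel and protein kinase C genes followed. Of 20 genes of cardiac ion handling, 2 overlapped an HT-ahead window (10%). The window of Kcnj5, a subunit of the acetylcholine-activated potassium channel of atrial muscle, held 7 HT-restricted and 2 pSHF-restricted peaks, with 4 clustered peaks inside Kcnj5 and a highest fold of 9.74. Cacna2d2, an auxiliary calcium channel subunit, lay in a joined pair on chromosome 9 that held 13 HT-restricted peaks, 6 of them inside Cacna2d2, beside 1 pSHF-restricted peak. Of 9 protein kinase C genes, 2 overlapped an HT-ahead window (22.2%). All 8 clustered peaks of the Prkca window lay inside Prkca with folds of 3.84 to 11.6, and all 13 of a joined pair on chromosome 17 lay inside Prkce with folds of 3.07 to 9.20. Prkca spans chr11:107933387-108343888 and Prkce chr17:86167785-86657919, so both are far longer than a window.

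Among the other lists, 1 of 20 endothelial and endocardial genes overlapped an HT-ahead window (5%), 1 of 16 Hedgehog pathway genes (6.25%) and 1 of 15 cell cycle genes (6.67%). They were Nfatc1, the endocardial factor of valve formation, Dhh, the Desert hedgehog ligand, and Ccnb1, cyclin B1. The Nfatc1 window held 5 HT-restricted and 0 pSHF-restricted peaks and no shared peak, with a highest fold of 7.35. The Dhh window held 6 HT-restricted peaks and 1 pSHF-restricted peak, 2 of them inside Dhh with folds of 3.84 and 3.98 and 1 at 3 bp from its end with a fold of 5.05. Without gene-end peaks in either list the excess of the Dhh window was 2. None of 14 atrial identity genes, 16 second heart field progenitor genes, 10 epicardial genes, 14 foregut endoderm genes and 10 neural crest genes overlapped one. In all, 25 of 234 list genes lay in HT-ahead windows.

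The 0 of 14 for atrial identity concerns windows, not single peaks. At gene ends, 9 of those 14 genes had an HT peak and 4 had a pSHF peak, and 14 and 6 of the 22 sarcomere genes did. These are 64.3% and 28.6% of the atrial identity genes and 63.6% and 27.3% of the sarcomere genes, beside 59.2% and 58.5% of all protein-coding genes. For second heart field progenitor genes the counts were 9 in HT and 11 in pSHF of 16. Genes in HT-ahead windows were longer, with a median of 29.7 kb against 17.3 kb over all protein-coding genes, and long genes have more room to overlap a window. Genes in the opposite windows were longer still, with a median of 40.1 kb. List medians were 9.04 kb for erythroid, 22.3 kb for sarcomere and 129 kb for protein kinase C genes. The part of gene length in the overlaps was not tested.

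**Figure D2:**
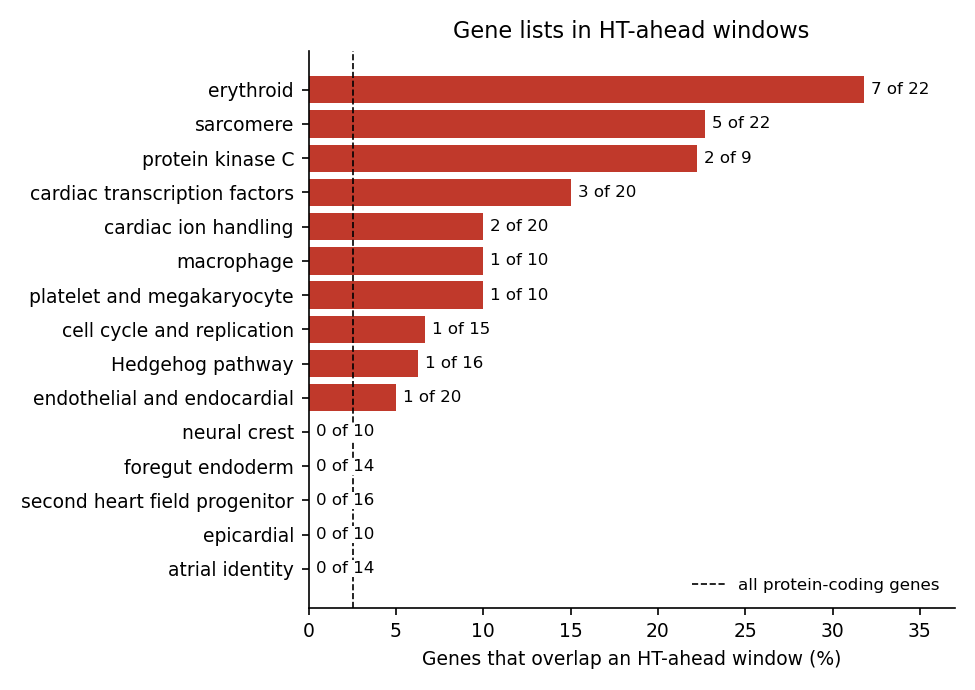
Share of each gene list that overlaps an HT-ahead window, in percent on the x axis, as 1 bar per list with the count of genes beside it. The dashed line is the share over all protein-coding genes (2.53%), and the erythroid list (31.8%) and the sarcomere list (22.7%) lie furthest to its right.

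Windows with a high count were not only those of heart and blood genes. The window from 172200001 on chromosome 2, in which Mc3r (a melanocortin receptor) is the only protein-coding gene, held 13 HT-restricted peaks and 1 pSHF-restricted peak. None lay inside Mc3r, 5 reached a −log10 q of 5, and the highest folds were 11.1 at 172290526 to 172290898 and 11.1 at 172260006 to 172260344. The window from 71200001 on chromosome 17 held 11 HT-restricted and 0 pSHF-restricted peaks, with 5 inside Lpin2, a phosphatidate phosphatase, and 6 inside Emilin2, an extracellular matrix protein. There 10 of 11 reached a −log10 q of 5, the most in any HT-ahead window. The peak at 71235429 to 71236002 in Lpin2 had a fold of 15.2 and 51 summit reads. Myom1, which encodes a protein of the sarcomere's M-band, lay 73.1 kb to the left of that window.

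The next windows were of several kinds. Gipc2 and Dnajb4 on chromosome 3, and a group of ribonuclease and angiogenin genes on chromosome 14 (51100001 to 51200000), each held 9 HT-restricted peaks and none of the pSHF-restricted kind. No peak of the ribonuclease window was shared, and 6 of its 9 peaks reached a −log10 q of 5. These genes are related copies, so read placement there is uncertain. Tfeb, a transcription factor of lysosome genes, and Chd7, a chromatin remodeller, each lay in a window of 9 HT-restricted peaks beside 1 pSHF-restricted peak, and all 9 at Chd7 lay inside the gene. Windows of Kcng3 (a potassium channel subunit), Tbc1d1 (a Rab GTPase-activating protein) and Sppl3 (an intramembrane protease) had 8 HT-restricted and 0 pSHF-restricted peaks each. All 8 lay inside the gene at Tbc1d1 and at Sppl3, and none lay inside Kcng3.

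The histone and tRNA cluster on chromosome 13 differed from the rest in its shared peaks. The joined pair from 23400001 to 23600000 held 18 HT-restricted peaks, 1 pSHF-restricted peak and 35 HT peaks shared with pSHF. In its second window, with 15 histone genes, the 10 clustered peaks had a median fold of 3.75 against 6.72 for the 19 shared HT peaks. Of those 10, 6 lay within 1 kb of a tRNA gene and 4 within 1 kb of a histone gene, while 16 of the 19 shared peaks lay near a histone gene. Strong histone promoters were thus mostly shared, and the clustered peaks were the weaker ones. Near a tRNA gene lay 4 of the 19 shared peaks of the second window, but 13 of 16 in the first. Of the 8 clustered peaks of the first window, 3 lay near one. For tRNA genes the windows of the pair thus went opposite ways. Without gene-end peaks in either list, the excess in the second window was 1.

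tRNA genes, a group chosen after the values were seen, lay within 1 kb of 23 of the 1586 clustered peaks (1.45%, 95% interval 0.921 to 2.17), against 34 of 20814 other HT-restricted peaks (0.163%). Of shared HT peaks, 0.782% lay near one. Of the 23, 22 lay in 4 windows of chromosome 13, with 6, 7, 3 and 6 each, and 1 on chromosome 1. Without the joined histone pair the count was 14 of 1568 (0.893%). tRNA and histone genes are near-identical copies, which leaves the placement of reads among them uncertain.

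Neighbouring HT-ahead windows joined only in pairs. The 257 windows formed 245 runs, of which 12 were pairs with 155 clustered peaks and none was longer. The pair with the largest count after the histone pair lay on chromosome 16 from 33900001 to 34100000, with 15 HT-restricted and 4 pSHF-restricted peaks. There 10 lay inside Kalrn, a guanine nucleotide exchange factor, and the highest fold was 12.2 at 34031665 to 34031954. Pairs with 14 HT-restricted peaks lay at Ptgis (prostacyclin synthase) and B4galt5 on chromosome 2, beside 2 pSHF-restricted peaks, and at the fatty acid desaturase genes on chromosome 19, beside 4. The pair on chromosome 10 held 12 HT-restricted and 0 pSHF-restricted peaks over Frs2 (an adaptor of fibroblast growth factor receptors), Best3, Cct2 and Lrrc10, a gene of heart muscle whose promoter peak had a fold of 5.05. Adcy1 with Igfbp1 on chromosome 11 had 11 and 0, and Tmem170b with Adtrp on chromosome 13 had 10 and 0.

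Windows near the selected ones were counted after leaving out those that were themselves HT-ahead or opposite. The selection thus keeps the excess in each window counted below 5, and how far an excess extends was not tested. In the remaining windows next to HT-ahead windows, 64.2% of restricted peaks were HT-restricted (95% interval 61.6 to 66.8). They held 1.74 HT-restricted and 0.971 pSHF-restricted peaks per window. Over all windows of neither kind the share was 58.5%, with 0.819 and 0.580 per window. At 2, 3, 4 and 5 windows away the share was 59.5%, 60.6%, 57.1% and 57.7%. Beside the opposite windows it was 48.3% (42.2 to 54.5) next to them and 51.1%, 55.6%, 59.7% and 58.4% further out. Next to the opposite windows there were 1.38 HT-restricted and 1.48 pSHF-restricted peaks per window. Both kinds of restricted peak were thus denser beside both kinds of selected window than over windows of neither kind.

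**Figure D3:**
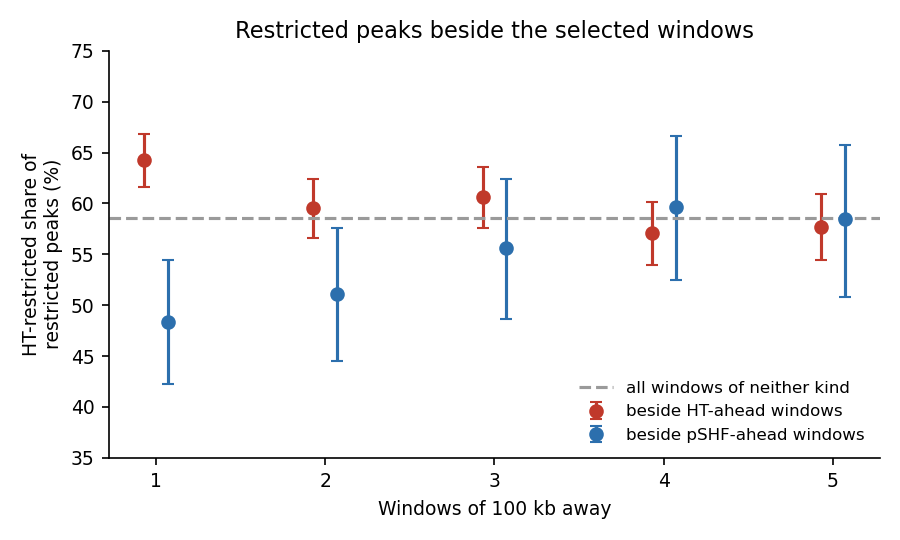
Share of restricted peaks that were HT-restricted, in percent with exact 95% binomial intervals, against the distance in 100-kb windows from HT-ahead windows and from the opposite windows. Neighbouring windows that were themselves HT-ahead or opposite are left out. The share next to HT-ahead windows (64.2%) is the furthest above the level of all windows of neither kind (58.5%), and from 2 windows on the intervals beside HT-ahead windows include that level, while next to the opposite windows the share was 48.3%.

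The whole distribution of counts shows how the threshold sits. An excess of exactly 5 was seen in 148 windows with 813 HT-restricted and 73 pSHF-restricted peaks, and of exactly 4, just outside, in 407 windows with 1808 and 180. Median folds of the HT-restricted peaks were 4.91 and 4.84 in these groups, and median widths 186 and 181 bp. Higher excesses were rarer, at 70 windows for 6, 25 for 7, 7 for 8, 3 for 9 and 1 each for 10 to 13. Of 546 windows with 5 or more HT-restricted peaks, 289 were not HT-ahead because pSHF-restricted peaks were also present. With only peaks of a −log10 q of at least 5 in both tissues, 41 windows were HT-ahead, and with as many HT-restricted as pSHF-restricted peaks, keeping the HT-restricted peaks of highest −log10 q, 101 were. With windows starting 50000 bp further along, 298 were HT-ahead, and 149 of the original 257 overlapped one of them. In the HT-ahead windows 160 of 257 had no pSHF-restricted peak, and 25 had no pSHF peak of any kind.

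**Figure D4:**
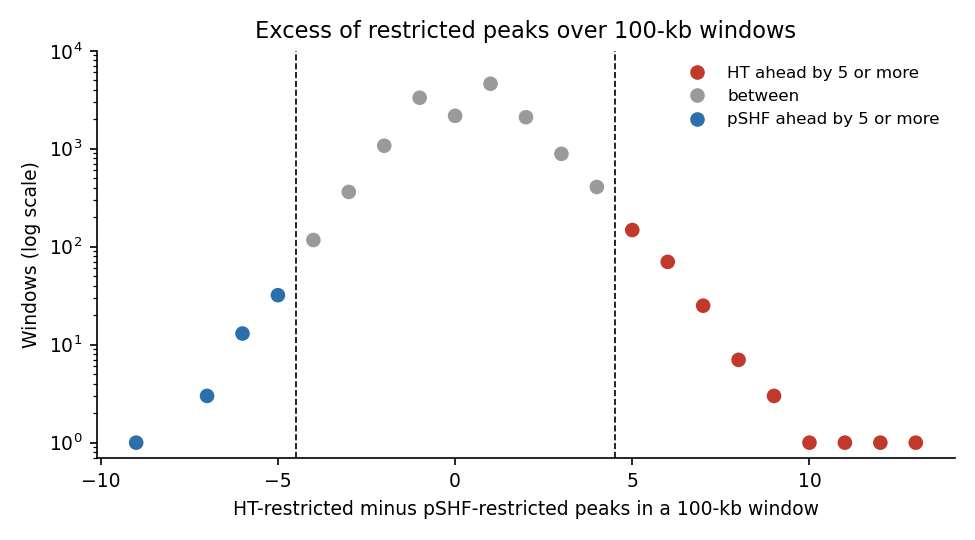
Number of 100-kb windows (y axis, log scale) at each difference between the HT-restricted and pSHF-restricted peak counts (x axis), with HT-ahead windows and the opposite windows coloured. The HT side reaches 13 with 257 windows at 5 or more, and the pSHF side reaches -9 with 49 windows at -5 or less.

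Clustered peaks were weak by the measure of peaks shared between tissues, like HT-restricted peaks in general. Their median fold was 4.87 (quartiles 4.02 and 6.21), against 4.84 for the other 20814 HT-restricted peaks and 7.0 for 26867 shared HT peaks. Summit depth, recovered from the deposited values, had a median of 12 reads (quartiles 9 and 17), against 9 and 18 in those groups. The caller's local background was also higher at clustered peaks, with medians of 1.38, 0.932 and 1.77 reads. A −log10 q of 5 was reached by 781 clustered peaks (49.2%, 46.8 to 51.7) and by 40.2% of other HT-restricted peaks. Fold was thus alike while reads and background were both higher than at other HT-restricted peaks, and the part of local background in the clustering was not tested.

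**Figure D5:**
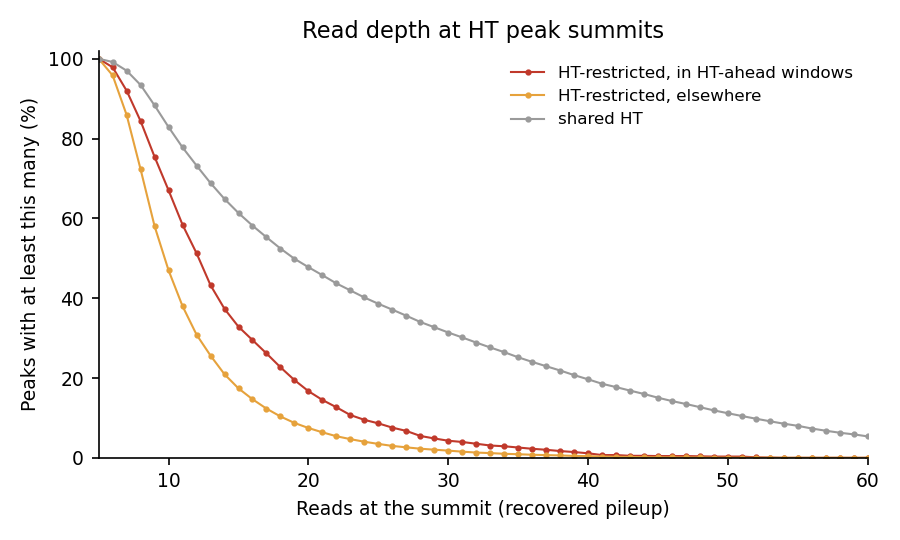
Percent of peaks (y axis) with at least a given number of reads at the summit (x axis), for clustered HT-restricted peaks, other HT-restricted peaks and shared HT peaks. The median depth is 12 reads for clustered, 9 for other HT-restricted and 18 for shared peaks, so the clustered peaks lie between the other groups.

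The strongest clustered peaks were scattered over the windows. The highest, with a fold of 18.3 and 53 summit reads, lay in Tnfrsf21, a death-domain receptor, at chr17:43025073-43025417. After it came a peak at 148980687 on chromosome 5 with a fold of 15.7, near a long noncoding RNA gene, the Lpin2 peak above, and a peak in Mknk1 (a kinase that phosphorylates the translation factor eIF4E) at 115849220 on chromosome 4, with 15.2. Others were in Pkhd1l1 (14.8), near Rhag (14.1), in Spock1 (13.8) and 223136 bp from Veph1 on chromosome 3 (13.6). Spock1 and Tnfrsf21 each held all 6 clustered peaks of their windows. In 87 windows a single gene held at least 5 clustered peaks.

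Most clustered peaks lay away from gene ends. Of 1586, 235 lay within 1 kb of a gene end (14.8%, 13.1 to 16.7), 828 elsewhere inside a protein-coding gene (52.2%, 49.7 to 54.7) and 523 outside (33.0%, 30.7 to 35.4). Among other HT-restricted peaks these shares were 14.3%, 47.4% (46.8 to 48.1) and 38.2% (37.6 to 38.9). Clustered peaks were thus more often inside coding genes than HT-restricted peaks elsewhere, with intervals over peaks that do not overlap. Of 122 pSHF-restricted peaks in HT-ahead windows, 61 were so placed (50%, 40.8 to 59.2). For pSHF-restricted peaks in windows of neither kind the share was 42.0%. HT-ahead windows overlapped a median of 2 coding genes, against 1 over all windows with a restricted peak. Peaks of 1 window are not independent, so these intervals are too narrow as a measure of windows. The median distance to the nearest pSHF peak was 11412 bp, against 12457 bp, and 128 clustered peaks (8.07%) lay within 500 bp of one, against 9.99%.

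Inside a window the peaks were spread out. The median gap between neighbouring clustered peaks was 9230 bp, and 53.3% of 1329 gaps were at most 10 kb. In the windows with 5 or more HT-restricted peaks that were not HT-ahead, the median gap was 11642 bp, with 45.9% at most 10 kb. Between pSHF-restricted peaks of the opposite windows it was 9886 bp, with 51.1%. Gaps shorten as more peaks fall in a window of fixed size. The number of peaks per window was not matched between these groups, so the difference in gaps is a description. The span from first to last clustered peak had a median of 67.2 kb and ranged from 9.93 to 97.5 kb. In 127 windows at least 3 clustered peaks lay within 10 kb, in 27 at least 4, and the most was 6.

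HT-ahead windows had 8.82 HT peaks and 3.29 pSHF peaks per window, against 2.95 and 2.58 over the 15333 windows with a restricted peak. The opposite windows had 1.88 and 7.45. The rule asks for at least 5 HT-restricted peaks in an HT-ahead window, so its high HT number follows from the selection. Of 846 pSHF peaks in HT-ahead windows, 85.6% (83.0 to 87.9) overlapped an HT peak, against 65.6% of all 44018 pSHF peaks. The rule itself keeps pSHF-restricted peaks few in these windows, so that share is a description. At shared peaks, which the rule did not use, the log2 ratio of HT to pSHF fold had a median of 0.32 in HT-ahead windows, 0.28 in the opposite windows and 0.27 in other windows. For shared peaks more than 1 kb from a gene end the medians were 0.35, 0.32 and 0.23, so HT-ahead windows and the opposite windows were close. A ratio above 1 on that scale was seen at 14.2% (10.5 to 18.5) of these distal shared peaks in HT-ahead windows, 9.09% (2.53 to 21.7) in the opposite windows and 7.50% (7.04 to 7.98) in other windows. The first interval lies above the third and overlaps the second, which rests on only 44 peaks. Whether a tilt toward HT is particular to HT-ahead windows was thus not decided and was not tested. At shared peaks near gene ends the shares were 2.47%, 6.67% and 2.58%.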

How the data were processed

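ATAC-seq peaks of 3 HT and 3 pSHF samples were analysed as 1 deposited list per tissue. Bowtie2 2.3.2, SAMtools 1.5, Picard and MACS2 2.1.1, with mm10, are named in the submitters' processing notes. Their roles, their parameters and any pooling before calling were not given in the sources used here. Each deposited line holds a score, a fold enrichment (a ratio), −log10 p and −log10 q values and a summit offset, as the authors' peak caller wrote them. The HT list had 60223 lines and the pSHF list 58887, with a lowest −log10 q of 1.31 and 1.30.

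Lines of equal interval were merged, keeping the summit of highest fold. Overlap meant at least 1 bp. Total reads are unknown. Summit reads were recovered from fold, taken as (reads + 1)/(background + 1), and the Poisson p, which matched within 0.01 on the log10 scale for 100% of peaks in both lists. The genome background was 0.824 reads in HT and 0.857 in pSHF. Shares carry exact Clopper-Pearson 95% intervals, covering counting error over peaks only. Genes and promoters came from RefSeq tables of GRCm38.p6, and a gene end is either end of a gene. Python 3.11.15, pandas 2.3.3, NumPy 2.4.6 and SciPy 1.17.1 were used, and the window count was checked on simulated data.

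The windows and the 16 gene lists (234 symbols) were chosen with earlier results of these data known. The result of the housekeeping list is not reported here. Named were the 15 windows furthest ahead, joined windows, windows of list genes and the 10 clustered peaks of highest fold; the gene-free windows below were named for having no coding gene. Alternatives were the overlap, the window size and origin, the threshold, a q threshold, equal numbers of restricted peaks, scaled counts, gene-end peaks and unmerged lines.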

Additional observations from a re-analysis of the deposited data

How the results depend on the processing

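With 1 list per tissue, the spread between samples is unknown, and restriction means absence from the other list at its threshold, at a median of 12 summit reads. A −log10 q of at least 5 in both lists left 9156 HT-restricted and 2403 pSHF-restricted peaks, with 41 windows, 226 clustered peaks, a median fold of 6.33 and 1 joined run. At that setting 10 of 54 named windows kept an excess of 5, among them beta-globin (9), Lpin2 and Emilin2 (10) and Nkx2-5 (6), and the excess at Myh6 was 1. Keeping as many HT-restricted peaks, of the highest −log10 q, as there were pSHF-restricted peaks gave 101 windows, 603 peaks and 3 joined runs. An excess of 4 gave 664 windows, 3394 peaks and 58 joined runs, and an excess of 6 gave 109, 773 and 2. Windows of 50 kb gave 86, 484 and 4, and windows of 200 kb gave 572, 4164 and 43. Scaled counts left 6 joined runs (200 windows, 1224 peaks), and leaving out gene-end peaks left 5 (183 windows, 1087 peaks). Without gene-end peaks, 18 of 54 named windows had an excess below 5. The share of clustered peaks at gene ends was 17.1% with 50% reciprocal overlap and 11.1% with a 500-bp separation. Counts stayed within 1.5 times with reciprocal overlap (236 windows), the separation (224), windows shifted by 50000 bp (298) and unmerged lines (317). The cause of these differences was not tested. No paired analysis was possible because the lists carry no sample or replicate and no result comes from a test.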

Other observations

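Of the 257 windows, 26 overlapped no protein-coding gene. The one furthest ahead, on chromosome 5 from 118400001, held 10 HT-restricted peaks and 1 pSHF-restricted peak, with a highest fold of 12.3, and lay 60.3 kb from Med13l, a subunit of the Mediator kinase module, and 137 kb from Spring1. A window on chromosome X from 50600001 held 8 and 0. A window 152 kb from Bmp2, a signal of heart cushion formation, held 8 HT-restricted peaks and 1 pSHF-restricted peak with a highest fold of 8.07. A window 474 kb from Runx1, a blood transcription factor, held 6 and 0 with a highest fold of 12.5. Setd4 lay nearer to that window than Runx1, at 183 kb. A window 27.2 kb from Sall1, a zinc-finger factor, and a window 372 kb from Shox2, a factor of the sinus venosus, each held 5 and 0, with highest folds of 8.22 and 13.6. Veph1 lay nearer to the latter window than Shox2, at 203 kb. The windows near Bmp2, Runx1, Sall1 and Shox2 were chosen for naming after their values were seen. Distance to the nearest gene does not assign a peak to it.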
